A study of Homo sapiens with 18 samples.

Results

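Described here are 31 genes of cholesterol synthesis, uptake control and efflux, chosen by name from the 57500 genes in the deposited count tables, with earlier results of these data known. They were measured in THP-1, a cell line from a human monocytic leukaemia that grows in suspension. The cells had been transduced with lentiviral particles carrying a non-target short hairpin RNA (shNT) or a hairpin directed at 1 of NR4A2 (the shNR4A2 line) and NR4A3 (the shNR4A3 line), orphan nuclear receptors that are induced rapidly by inflammatory stimuli. Each of the 3 lines was left unstimulated (control) or given bacterial lipopolysaccharide (LPS) at 2.5 μg/ml for 2 h, which made 6 groups of 3 libraries and 18 libraries in all. All groups, the unstimulated ones included, were kept in buffered DMEM with 10% serum, which itself supplies lipoprotein cholesterol, and all carried a lentiviral hairpin, so that no untransduced cells were compared. Each hairpin is represented by a single stable line, and a difference between lines cannot be told apart from other differences between those cell populations. Polyadenylated RNA was sequenced, and the counts on genes summed to 16171161 in the shallowest library, 19639071 at the median and 23929138 in the deepest. The labels number the libraries 1 to 3 within each group and do not say whether they came from separate cultures, while the study calls its sequenced replicates independent experiments; the p-values measure the spread between these libraries.

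Animal cells make cholesterol from acetyl-CoA through mevalonate, squalene and lanosterol. When sterols in the endoplasmic reticulum run low, SCAP carries the SREBP proteins, encoded by SREBF1 and SREBF2, to the Golgi for cleavage, and the freed factors switch on the genes of synthesis and uptake; INSIG1 and INSIG2 hold SCAP back when sterols are plentiful. When sterols accumulate, the oxysterol receptors LXRα and LXRβ act the other way and induce the efflux pumps ABCA1 and ABCG1 and the E3 ligase MYLIP, which marks lipoprotein receptors for degradation. In macrophages this balance decides how much lipid is stored after uptake of lipoproteins and dying cells.

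The 31 genes were grouped by role into 7 of the mevalonate steps, 11 of the steps from squalene to cholesterol, 5 of SREBP control, 4 of transport inside the cell and uptake control, 2 efflux pumps and 2 of oxysterol and ester formation. The gene called ACAT2 here is the acetyl-CoA acetyltransferase of the first step of the route, and not the sterol esterifying enzyme that shares the abbreviation. SREBP acts at promoters together with NF-Y, which binds CCAAT boxes, so the start regions of the members called in at least 4 comparisons below are shown for these boxes, without SQLE, for which no window was at hand. RefSeq promoter windows (GRCh38.p14, from 250 bases before to 50 after a start site) were at hand for 27 of the 31 members, in 34 windows. A CCAAT box on either strand was found in 19 of those 27 members, against 39.7% of all 27305 genes with a window. The bases before the start site that no deposited exon covers are given 5′ to 3′ on the gene's strand for 4 members, with CCAAT and its reverse complement ATTGG in capitals. They lie at chr5:43313513-43313662 (minus strand) for HMGCS1, chr7:155297628-155297775 (plus) for INSIG1, chr4:165327419-165327622 (plus) for MSMO1 and chr5:111512591-111512785 (minus) for STARD4. Boxes in the part covered by exons are not printed. HMGCS1 has 2 boxes in the 250 bases, of which 1 is printed, and MSMO1 has 4, of which 3 are printed. For IDI1 and SC5D the whole stretch before the RefSeq start lies in exons of the deposited annotation, and only the box nearest the start is shown, at chr10:1048957-1048985 (minus) and chr11:121292703-121292731 (plus).
HMGCS1: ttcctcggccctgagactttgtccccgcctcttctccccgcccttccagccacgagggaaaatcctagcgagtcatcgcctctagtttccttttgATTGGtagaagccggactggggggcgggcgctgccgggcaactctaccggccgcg
INSIG1: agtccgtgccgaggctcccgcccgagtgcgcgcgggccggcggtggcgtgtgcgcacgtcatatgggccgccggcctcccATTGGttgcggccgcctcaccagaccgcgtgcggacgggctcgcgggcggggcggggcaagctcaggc
MSMO1: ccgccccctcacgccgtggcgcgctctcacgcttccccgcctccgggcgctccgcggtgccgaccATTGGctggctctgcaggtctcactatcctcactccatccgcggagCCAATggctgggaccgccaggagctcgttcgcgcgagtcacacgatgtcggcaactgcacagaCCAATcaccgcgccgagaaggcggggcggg
STARD4: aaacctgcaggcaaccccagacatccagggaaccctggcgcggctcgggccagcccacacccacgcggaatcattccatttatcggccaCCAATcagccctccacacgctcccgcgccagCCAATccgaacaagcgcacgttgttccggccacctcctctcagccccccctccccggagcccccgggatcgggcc
IDI1: ctggcgcgagcgATTGGctgcgcggcccg
SC5D: cgccggtcgctgATTGGctggccgctcca

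The sterol regulatory element core TCACNCCAC, searched on both strands, was found in 1 of the members' 34 windows, at SREBF2, against 1.13% of all 35116 windows. It is shown in capitals with its neighbours, at chr22:41832962-41832990 on the plus strand.
SREBF2: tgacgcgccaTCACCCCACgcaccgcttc
The NBRE AAAGGTCA, the element that NR4A receptors bind as single molecules, was found on either strand in none of the members' 34 windows, against 1.22% of all windows. At such shares 34 windows are too few for a comparison. These matches describe letters in short windows, and no binding was measured.

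Levels are given as read counts divided by exon length and by the library size, which was scaled by the trimmed mean of M values over all 18 libraries (TMM-normalised RPKM, called RPKM below). In unstimulated shNT cells the most abundant members were FDPS, the farnesyl diphosphate synthase, at a mean of 66.8 RPKM and SREBF2 at 63.5 RPKM. FDPS lay at percentile 96.7 of the 16935 genes that passed the low-count filter. SQLE, the squalene epoxidase, stood at 29.98 RPKM and HMGCS1, which condenses acetyl-CoA units into the mevalonate precursor, at 27.8 RPKM. The late sterol enzyme SC5D stood at 7.80 RPKM, MSMO1, the sterol C4 methyl oxidase, at 3.48 RPKM and the sterol carrier STARD4 at 3.34 RPKM. At the low end, ABCG1 stood at 0.420 RPKM, well under ABCA1 at 7.82 RPKM. CH25H, which makes 25-hydroxycholesterol, had at most 1 read in a library and was not tested in any comparison with the low-count filter. The other 30 members were tested in all of them.

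Each hairpin's target was lower in its own line. NR4A2 stood at 1.07, 0.746 and 0.990 RPKM in shNT control libraries and at 0.466, 0.422 and 0.592 RPKM in shNR4A2 control libraries (log2 fold change −0.91, SE 0.228, edgeR adjusted p = 0.0359), and with LPS its log2 fold change was −1.52 (SE 0.192, edgeR adjusted p = 0.00265). The first of these calls was lost on leaving out any of replicates 1 and 2 of shNR4A2 or 1 and 3 of shNT, with an edgeR adjusted p of up to 0.124. NR4A3 had between 1 and 5 reads in the shNR4A3 control libraries against 17 to 21 in those of shNT (log2 fold change −2.47, SE 0.490, edgeR adjusted p = 0.00767), and with LPS its log2 fold change was −0.82 (SE 0.0799, edgeR adjusted p = 0.000556). With LPS the shNR4A3 line also had a mean of 14.3 RPKM of NR4A2 against 18.4 RPKM in shNT, with overlapping libraries (log2 fold change −0.36, SE 0.156, edgeR adjusted p = 0.198, 0.00132 with the replicate block and 0.0109 without a filter).

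The label was also checked against markers of cell types. All 8 monocytic markers were detected in every library, with SPI1, the myeloid master factor, between 129 and 363 RPKM. CD3D, CD3E, CD2, MS4A1, HBB and HBA1 had at most 5 reads in any library. CD79A was at most 1.04 RPKM, CDH5 at most 0.0777 RPKM and KRT8, the highest of the 7 epithelial and fibroblast markers, at most 0.479 RPKM, whereas PECAM1, which monocytes also carry, stood between 34.7 and 73.9 RPKM. The monocytic markers themselves differed between lines. Their summed level was 302 ± 22.8 RPKM in shNT, 456 ± 27.8 RPKM in shNR4A2 and 559 ± 79.4 RPKM in shNR4A3 control cells (SD, n = 3), and 380 ± 33.8, 573 ± 70.7 and 683 ± 93.7 RPKM with LPS. LYZ, which encodes lysozyme, was higher in both knockdown lines, with log2 fold changes against shNT control cells of 1.68 (shNR4A2) and 2.25 (shNR4A3) (SE 0.139 and 0.137, edgeR adjusted p = 6.22e-05 and 6.72e-07). CSF1R, the receptor of the growth factor of the lineage, was higher by 0.77 and 1.02 (SE 0.130 and 0.121, edgeR adjusted p = 0.00495 and 0.000205). Of the 8 monocytic markers 2 were called higher in shNR4A2 cells (LYZ and CSF1R) and 4 in shNR4A3 cells (also ITGAM and SPI1), each without and with LPS, and none lower. The LYZ calls and the CSF1R calls held on leaving out each library, except that of CSF1R in shNR4A2 cells with LPS (edgeR adjusted p = 0.0548 without shNT replicate 2). The SPI1 call was lost on leaving out any library without LPS (up to 0.164) and on leaving out replicates 1 or 3 of shNR4A3 or 2 or 3 of shNT with LPS (up to 0.122). The ITGAM call was lost without replicate 1 of shNR4A3 or 2 or 3 of shNT in control cells (up to 0.077) and by the same 4 omissions as SPI1 with LPS (up to 0.0959). PECAM1 was also higher in shNR4A2 cells, by a log2 fold change of 0.63 without and 0.70 with LPS (SE 0.120 and 0.126, edgeR adjusted p = 0.00936 and 0.0127), the second call being lost without shNT replicates 2 or 3 (up to 0.062), and gave 0.29 and 0.36 in shNR4A3 cells (edgeR adjusted p = 0.126 and 0.0703). The part of these shifts in the differences between lines below was not tested, and in bulk libraries more cells of one state and more RNA per cell cannot be told apart.

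LPS raised a small set of the members in all 3 lines. STARD4, HMGCS1, INSIG1 and IDI1 rose in every line and MYLIP fell in every line. No other member was called in all 3 in the main fits (edgeR, low-count filter, each pair of groups on its 6 libraries, no replicate block). In shNT cells 7 of the 30 members tested rose and 2 fell, where 24.9% of all 15711 genes tested were called at an edgeR adjusted p under 0.05 (11.6% higher, 13.3% lower). In shNR4A2 cells 5 rose and 1 fell, against 19.3% of all genes called (9.23% higher, 10.1% lower). In shNR4A3 cells 6 rose and 2 fell, against 28.1% (13.1% higher, 15% lower). The members' share was therefore near that of all genes in each line. The median log2 fold change of the members was 0.045 in shNT, 0.0947 in shNR4A2 and 0.0942 in shNR4A3 cells, beside −0.01, −0.02 and −0.01 over all genes tested. With the replicate number as a block, 12 members were called in shNR4A2 cells (10 higher, 2 lower), where 30.1% of all genes were. It added ACAT2, FDPS, MSMO1, NPC2, SREBF2 and INSIG2 there. All 18 libraries in 1 fit, without the block, called 5 members higher in shNT, 9 in shNR4A2 and 5 in shNR4A3 cells. That fit called 2 members lower in each line, beside 20.8%, 27.2% and 27.9% of all genes called.

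**Figure D1:**
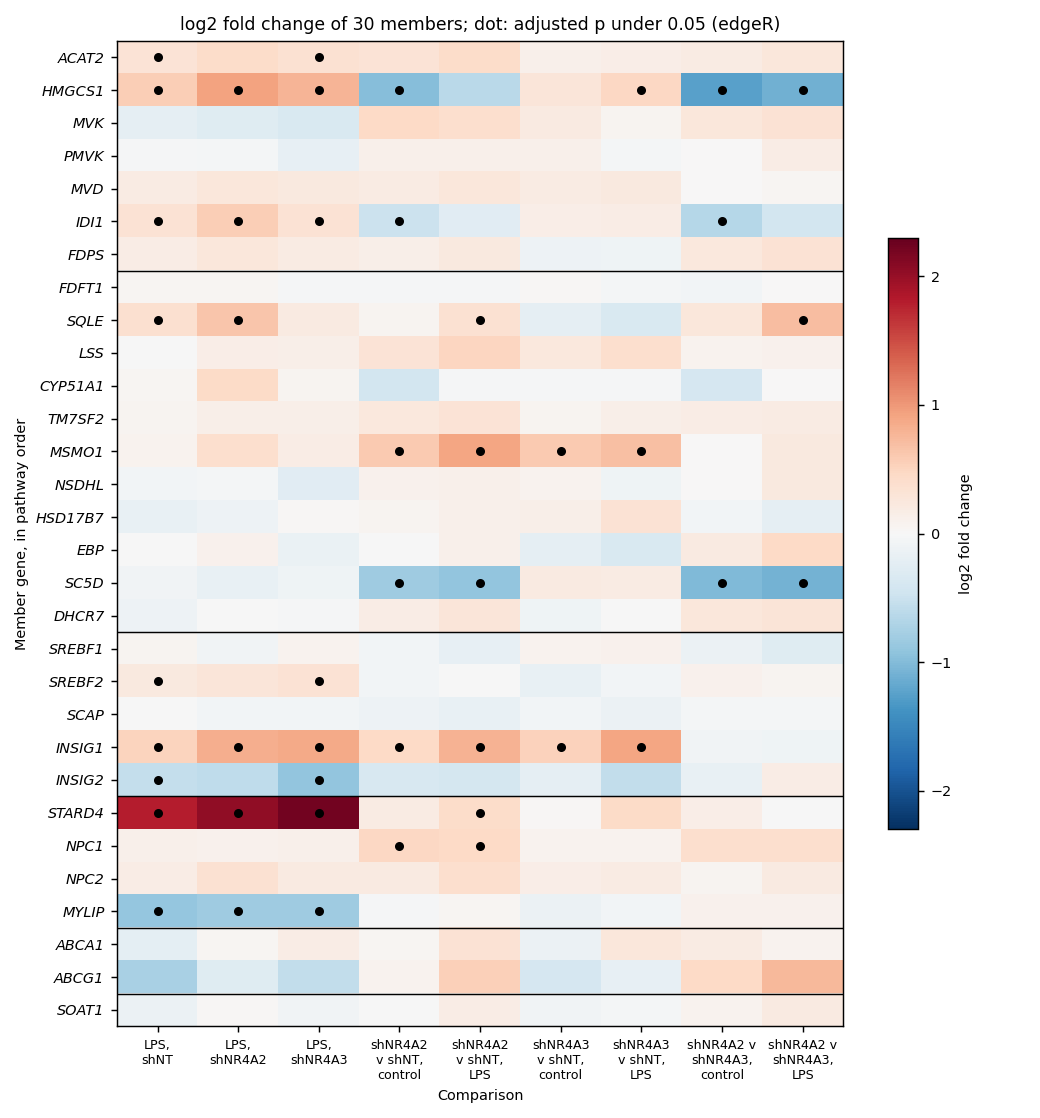
The log2 fold changes of the 30 members tested (vertical axis, in pathway order, lines between the role groups) in 9 comparisons (horizontal axis, v meaning against), in red where the first-named group was higher and in blue where it was lower, with a black dot where the edgeR adjusted p was under 0.05. STARD4 stands out under LPS in all 3 lines, HMGCS1 and SC5D are blue in shNR4A2 cells against both other lines, and INSIG1 and MSMO1 carry dots in both knockdown lines against shNT.

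STARD4, a soluble carrier that moves cholesterol between membranes (chr5:111496033-111512590), showed the largest change of any member. In shNT cells its level was 3.44, 3.13 and 3.46 RPKM in control libraries and 10.996, 11.2 and 12.7 RPKM with LPS. In shNR4A2 cells it was 3.77, 3.88 and 3.70 RPKM without and 16.2, 13.6 and 16.9 RPKM with LPS, and in shNR4A3 cells 3.48, 3.66 and 3.14 RPKM without and 18.8, 12.7 and 16.03 RPKM with LPS. The LPS libraries were all above the control libraries, and the 2 lowest of them belonged to shNT. The change on the log2 scale was 1.80 (SE 0.101, edgeR adjusted p = 9.53e-09) in shNT, 2.04 (SE 0.130, edgeR adjusted p = 2.18e-07) in shNR4A2 and 2.22 (SE 0.142, edgeR adjusted p = 7.79e-07) in shNR4A3 cells. STARD4 shares 124 of its 5684 exon bases with its antisense gene STARD4-AS1, which was at 0.589 RPKM or less in the mean of every group and was lower with LPS in shNT (log2 fold change −0.68, SE 0.230, edgeR adjusted p = 0.0444).

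MYLIP, the ligase that limits lipoprotein uptake (chr6:16129125-16148248), moved the opposite way. Its level was 9.33, 8.59 and 8.30 RPKM in shNT control libraries and 4.61, 5.14 and 4.34 RPKM with LPS. It was 9.34, 8.03 and 8.11 RPKM and then 4.96, 4.78 and 4.66 RPKM in shNR4A2 cells, and 7.75, 8.74 and 7.44 RPKM and then 4.69, 4.03 and 4.77 RPKM in shNR4A3 cells. No LPS library reached the lowest control library of any line, and the 3 lines gave nearly the same levels. Its log2 fold change was −0.89 (SE 0.111, edgeR adjusted p = 4.09e-05) in shNT, −0.83 (SE 0.135, edgeR adjusted p = 0.000879) in shNR4A2 and −0.82 (SE 0.122, edgeR adjusted p = 0.000468) in shNR4A3 cells. MYLIP is an LXR target, and of the other LXR targets among the members ABCA1, ABCG1 and SREBF1 were not called in any line with LPS, though the interval of ABCG1 in shNT cells lay below 0. Whether their changes differed from that of MYLIP was not tested. ABCA1 gave log2 fold changes of −0.23, 0.05 and 0.17 in shNT, shNR4A2 and shNR4A3 cells (SE 0.213, 0.266 and 0.185, edgeR adjusted p = 0.487, 0.919 and 0.546). ABCG1, with 19 to 111 reads per library, gave −0.75, −0.28 and −0.56 (SE 0.280, 0.484 and 0.301, edgeR adjusted p = 0.0652, 0.737 and 0.196), with 95% intervals of −1.36 to −0.15, −1.33 to 0.77 and −1.22 to 0.11. SREBF1 gave 0.07, −0.07 and 0.08 (SE 0.111, 0.166 and 0.107, edgeR adjusted p = 0.721, 0.804 and 0.634).

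**Figure D2:**
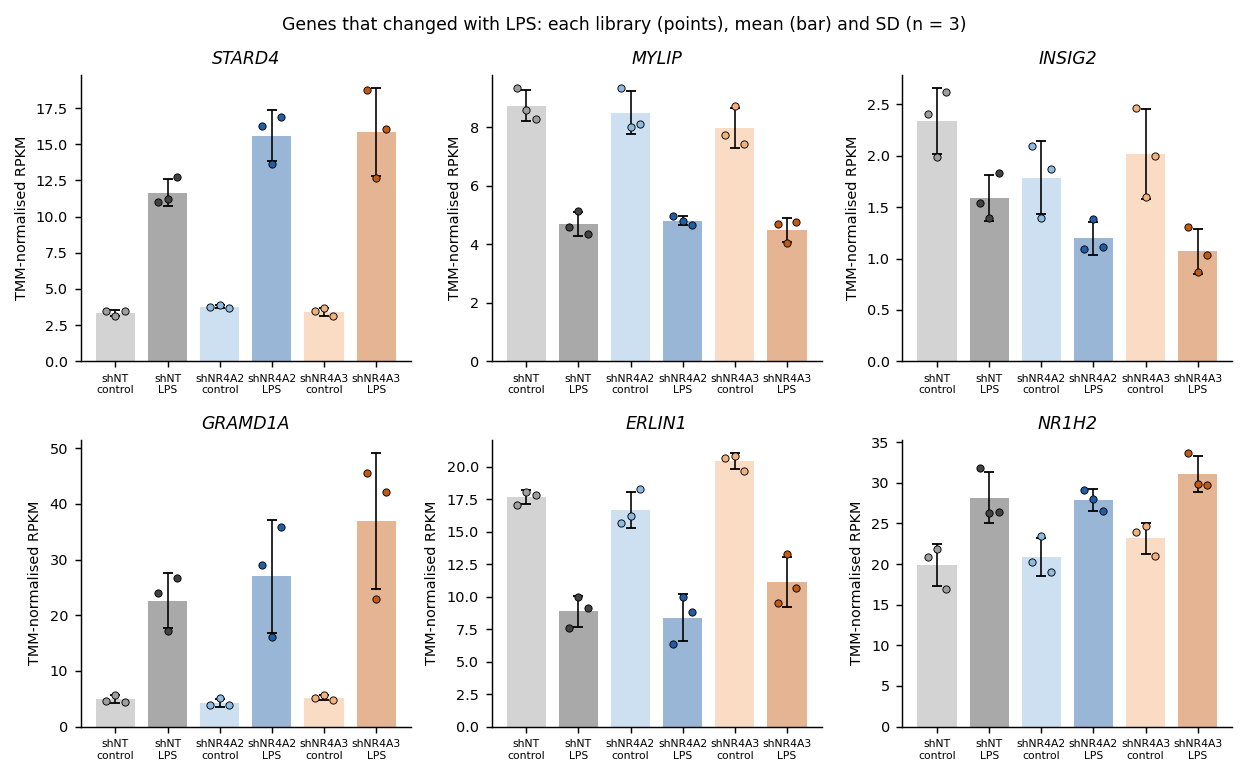
The level in each library (points), the mean (bar) and the SD (n = 3) in TMM-normalised RPKM for 6 genes in the 6 groups: the members STARD4, MYLIP and INSIG2, and GRAMD1A, ERLIN1 and NR1H2 from the list of other pathway genes. STARD4 and GRAMD1A rise several-fold with LPS in every line, and MYLIP and ERLIN1 fall to near 0.5 of their control level.

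Of the mevalonate genes, HMGCS1 and IDI1, the isopentenyl diphosphate isomerase, rose with LPS in all 3 lines. HMGCS1 (chr5:43289395-43313512) stood at 25.1, 27.8 and 30.5 RPKM in shNT control libraries and at 38.5, 45.8 and 39.4 RPKM with LPS. In shNR4A2 cells it stood at 13.9, 14.7 and 13.8 RPKM without and 29.5, 31.6 and 19.02 RPKM with LPS, and in shNR4A3 cells at 29.4, 38.5 and 32.9 RPKM without and 61.0, 61.4 and 49.6 RPKM with LPS. Its lowest LPS library, replicate 3 of shNR4A2, was still above the control libraries of that line but below every shNT control library. With LPS it changed on the log2 scale by 0.57 (SE 0.0963, edgeR adjusted p = 0.000585) in shNT, 0.92 (SE 0.167, edgeR adjusted p = 0.00184) in shNR4A2 and 0.78 (SE 0.117, edgeR adjusted p = 0.000527) in shNR4A3 cells.

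IDI1 (chr10:1039908-1049170) stood at 15.9, 17.8 and 18.2 RPKM in shNT control libraries and 19.7, 23.6 and 21.6 RPKM with LPS. In shNR4A2 cells its level was 11.9, 12.9 and 11.8 RPKM and then 18.4, 20.2 and 15.5 RPKM, and in shNR4A3 cells 17.6, 21.2 and 18.96 RPKM and then 24.8, 25.3 and 22.8 RPKM. The groups with and without LPS did not overlap in any line, though in shNT and shNR4A3 cells they came within a few RPKM of each other. The change on the log2 scale was 0.33 (SE 0.0953, edgeR adjusted p = 0.0223) in shNT, 0.56 (SE 0.130, edgeR adjusted p = 0.00907) in shNR4A2 and 0.34 (SE 0.0964, edgeR adjusted p = 0.0212) in shNR4A3 cells. The call in shNT was lost without control replicate 1 or LPS replicate 2 (edgeR adjusted p up to 0.110), and that in shNR4A3 without control replicates 1 or 3 or LPS replicate 1 (up to 0.0869). Of the other 5 mevalonate genes only ACAT2 was called in the main fits, with a log2 fold change of 0.32 in shNT and 0.35 in shNR4A3 cells (SE 0.105 and 0.104, edgeR adjusted p = 0.0414 and 0.0266). Each of those calls was lost on leaving out 4 of the 6 libraries in turn: control replicates 1 and 2 and LPS replicates 2 and 3 in both lines (edgeR adjusted p up to 0.184 and 0.105). In shNR4A2 cells ACAT2 gave 0.42 and FDPS 0.27 (SE 0.151 and 0.149, edgeR adjusted p = 0.0724 and 0.249, and 0.0061 and 0.0349 with the replicate block). ACAT2 shares 43.0% of its exon bases with SOD2 on the opposite strand, whose mean level went from 3.96 to 369.5 RPKM with LPS in shNT cells. Whether the reads were counted by strand is not given in the sources used here, so the 2 genes cannot be told apart over those bases, and the ACAT2 values are uncertain.

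In the steps from squalene to cholesterol, SQLE was the only 1 of 11 genes called with LPS in any line in the main fits. The replicate block added MSMO1 in shNR4A2 cells (log2 fold change 0.39, SE 0.142, edgeR adjusted p = 0.0733, and 0.0316 with the block). SQLE, one of the rate-limiting enzymes of the route, stood at 28.5, 32.0 and 29.4 RPKM in shNT control libraries and 40.3, 39.0 and 35.9 RPKM with LPS. Its level was 30.3, 32.8 and 30.8 RPKM and then 51.8, 49.1 and 45.8 RPKM in shNR4A2 cells, and 23.5, 29.4 and 25.6 RPKM and then 29.9, 33.2 and 27.3 RPKM in shNR4A3 cells. The groups separated in shNT and widely in shNR4A2 cells, and overlapped in shNR4A3 cells. The log2 fold change of SQLE was 0.36 (SE 0.0837, edgeR adjusted p = 0.00598) in shNT, 0.64 (SE 0.110, edgeR adjusted p = 0.00122) in shNR4A2 and 0.21 (SE 0.107, edgeR adjusted p = 0.172) in shNR4A3 cells. With the replicate block the last of these had an edgeR adjusted p of 0.0423.

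Among the SREBP control genes, INSIG1 and INSIG2 moved in opposite directions with LPS. INSIG1 (chr7:155297776-155310235), itself an SREBP target, stood at 18.045, 20.9 and 18.1 RPKM in shNT control libraries and 26.985, 29.04 and 24.6 RPKM with LPS. Its level was 23.9, 30.2 and 24.2 RPKM and then 49.1, 51.0 and 39.8 RPKM in shNR4A2 cells, and 22.5, 33.4 and 26.9 RPKM and then 57.7, 49.6 and 43.5 RPKM in shNR4A3 cells. Every LPS library lay above the control libraries of its line, and the knockdown lines reached levels with LPS that no shNT library reached. INSIG1 changed on the log2 scale by 0.50 (SE 0.0949, edgeR adjusted p = 0.00138) in shNT, 0.84 (SE 0.137, edgeR adjusted p = 0.000866) in shNR4A2 and 0.87 (SE 0.143, edgeR adjusted p = 0.000928) in shNR4A3 cells.

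INSIG2, the form that is not driven by SREBP in most cells, stood at 2.34 ± 0.322 RPKM in shNT control and 1.59 ± 0.224 RPKM in shNT LPS libraries (SD, n = 3). It fell in shNT (log2 fold change −0.55, SE 0.162, edgeR adjusted p = 0.0218) and in shNR4A3 cells (−0.91, SE 0.217, edgeR adjusted p = 0.00896). In shNR4A2 cells it gave −0.59 (SE 0.212, edgeR adjusted p = 0.0732, and 0.0468 with the replicate block). The shNT call was lost without control replicates 1 or 3 or LPS replicates 1 or 2 (edgeR adjusted p up to 0.0923). SREBF2, the SREBP gene that serves cholesterol synthesis, rose slightly, by 0.23 on the log2 scale in shNT and 0.33 in shNR4A3 cells (SE 0.0759 and 0.0946, edgeR adjusted p = 0.0428 and 0.0222), from 63.5 to 74.2 and from 56.6 to 71.0 RPKM. Both calls were fragile. The shNT call was lost on leaving out any library but control replicate 2 (edgeR adjusted p up to 0.145), and the shNR4A3 call without replicate 1 or 3 of either group (up to 0.0942). In shNR4A2 cells SREBF2 gave 0.28 (SE 0.120, edgeR adjusted p = 0.133, and 0.0373 with the replicate block). SCAP was not called in any comparison.

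Whether the LPS change differed between lines was tested by an interaction term over 12 libraries, and edgeR with the low-count filter, every library and no replicate block called no gene for either knockdown. At an unadjusted p under 0.05 there were 365 of 16674 genes (2.19%) for shNR4A2, with SQLE the only member, and 824 of 16428 (5.02%) for shNR4A3, with STARD4 the only member. DESeq2 called 2 and 8 genes, edgeR with the block 8 and 22, edgeR without a filter 29 and 138 and edgeR without LPS replicate 2 of the knockdown line 8 and 44, in no case a member. With the block INSIG1 was also at an unadjusted p under 0.05 for both knockdowns (edgeR adjusted p = 0.844 and 0.464). The interaction for SQLE was 0.29 on the log2 scale (95% interval 0.02 to 0.55) in shNR4A2 and for STARD4 0.41 (0.04 to 0.78) in shNR4A3 cells, and for INSIG1 it was 0.34 in shNR4A2 (−0.02 to 0.70) and 0.36 in shNR4A3 cells (−0.03 to 0.76), none of which passed the adjusted limit (edgeR adjusted p of 0.956 or above). For the other named regulators the interaction was −0.13 (SREBF1), 0.06 (SREBF2), 0.28 (ABCA1) and 0.47 (ABCG1) in shNR4A2 and 0.01, 0.10, 0.39 and 0.19 in shNR4A3 cells, all at an edgeR adjusted p of 0.999 or above.

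In shNR4A2 cells the members moved both ways. Against shNT, HMGCS1, IDI1 and SC5D were lower in unstimulated shNR4A2 cells while INSIG1, MSMO1 and NPC1, the late endosomal cholesterol exporter, were higher. These 3 lower and 3 higher members made 20.0% of the 30 tested, where 6.45% of all 15800 genes tested were called (3.63% higher, 2.82% lower). The members' median log2 fold change was 0.07, beside −0.00 over all genes. With the replicate block 12 members were called (7 higher, 5 lower), beside 23.6% of all genes.

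**Figure D3:**
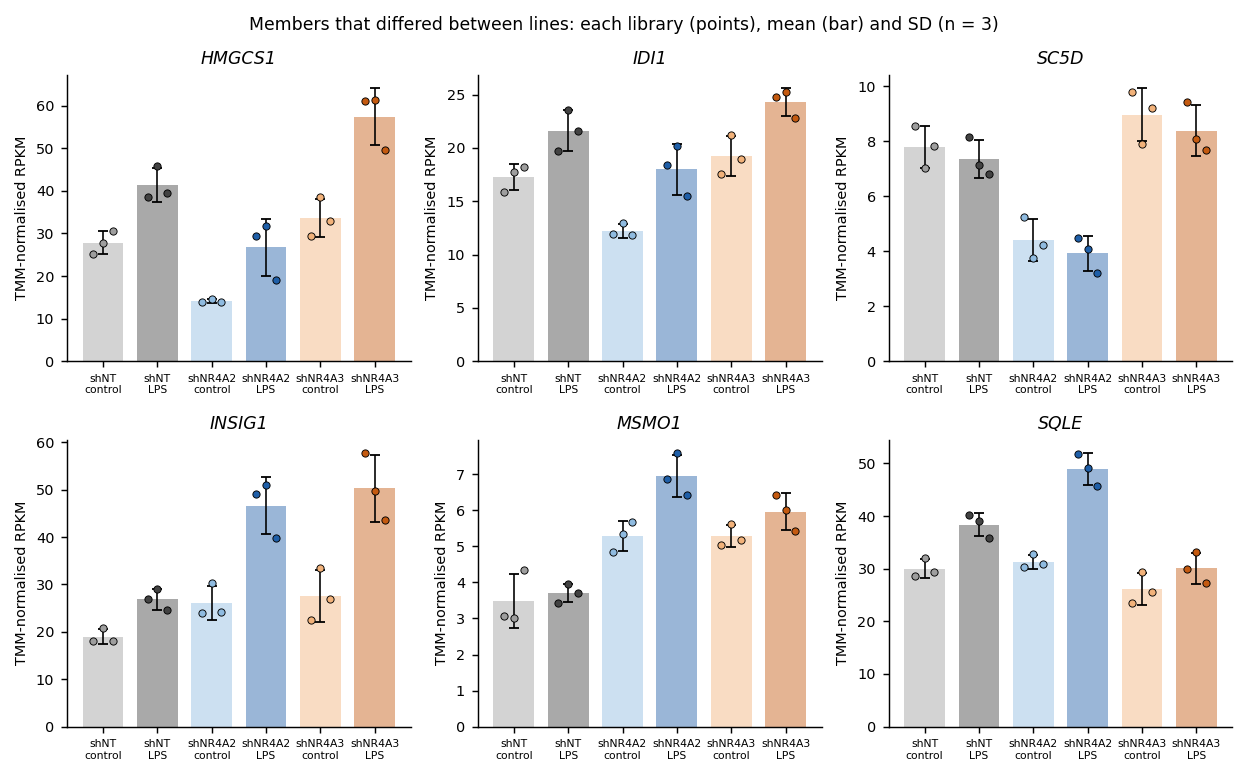
The level in each library (points), the mean (bar) and the SD (n = 3) in TMM-normalised RPKM for 6 members in the 6 groups. HMGCS1, IDI1 and SC5D have their lowest means in shNR4A2 cells within each treatment, INSIG1 and MSMO1 are higher in both knockdown lines than in shNT, and SQLE is highest in shNR4A2 cells with LPS at 48.9 RPKM.

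SC5D, the lathosterol oxidase near the end of the route (chr11:121292453-121308694), showed the difference most evenly. It stood at 8.55, 7.02 and 7.82 RPKM in shNT control and 5.25, 3.75 and 4.24 RPKM in shNR4A2 control libraries. With LPS it stood at 8.14, 7.14 and 6.81 RPKM in shNT and 4.47, 4.09 and 3.20 RPKM in shNR4A2 libraries. No shNR4A2 library reached the lowest shNT library in either state, and SC5D was not called with LPS in any line. Against shNT it differed by a log2 fold change of −0.82 (SE 0.137, edgeR adjusted p = 0.00484) without and −0.91 (SE 0.137, edgeR adjusted p = 0.00593) with LPS, and both calls held on leaving out each library in turn.

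HMGCS1, whose libraries are given above, was lower in shNR4A2 than in shNT control cells by a log2 fold change of −0.97 (SE 0.101, edgeR adjusted p = 0.00029), which is 0.510 of the shNT level. With LPS its difference was −0.62 (SE 0.171) and missed the limit (edgeR adjusted p = 0.0614), while DESeq2 gave an adjusted p of 0.0102 and edgeR with the replicate block one of 2.27e-09. IDI1 was lower by −0.50 (SE 0.102, edgeR adjusted p = 0.0145) in control cells. That call was lost without shNR4A2 replicate 1 or shNT replicates 2 or 3 (edgeR adjusted p up to 0.0725). With LPS its difference was −0.26 (SE 0.117, edgeR adjusted p = 0.219, and 0.00547 with the replicate block).

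MSMO1, which removes the C4 methyl groups of the sterol ring (chr4:165327623-165343160), was higher in both knockdown lines. It stood at 3.08, 3.01 and 4.36 RPKM in shNT control libraries, 4.86, 5.33 and 5.67 RPKM in those of shNR4A2 and 5.04, 5.62 and 5.18 RPKM in those of shNR4A3. With LPS it stood at 3.44, 3.95 and 3.72 RPKM in shNT, 6.86, 7.58 and 6.42 RPKM in shNR4A2 and 6.44, 6.02 and 5.42 RPKM in shNR4A3 libraries. Replicate 3 of shNT control lay nearest the knockdown libraries, and with LPS the gap to shNT was clear. The difference from shNT on the log2 scale in control cells was 0.60 (SE 0.163, edgeR adjusted p = 0.0499) for shNR4A2 and 0.59 (SE 0.156, edgeR adjusted p = 0.0347) for shNR4A3. With LPS it was 0.91 (SE 0.121, edgeR adjusted p = 0.00336) and 0.69 (SE 0.119, edgeR adjusted p = 0.00957). Both control calls were lost on leaving out any 1 library but shNT replicate 3 (edgeR adjusted p up to 0.167 and 0.130), and both LPS calls held throughout.

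INSIG1 was higher in both knockdown lines as well. Its log2 fold change in control cells was 0.46 (SE 0.118, edgeR adjusted p = 0.039) for shNR4A2 and 0.54 (SE 0.127, edgeR adjusted p = 0.0214) for shNR4A3. With LPS it was 0.80 (SE 0.114, edgeR adjusted p = 0.00438) and 0.90 (SE 0.111, edgeR adjusted p = 0.0018), and these 2 calls held on leaving out each library. The shNR4A2 control call was lost without shNR4A2 replicate 2 or any shNT replicate (edgeR adjusted p up to 0.155), and the shNR4A3 control call without shNR4A3 replicates 2 or 3 or shNT replicates 1 or 3 (up to 0.0727). The comparisons of both lines share the shNT libraries and are not independent of each other.

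With LPS, 5 members were higher and 1 was lower in shNR4A2 than in shNT cells (20.0% of those tested), where 6.96% of all 15590 genes were called (4.31% higher, 2.65% lower). Beside MSMO1, INSIG1 and SC5D these were NPC1 (log2 fold change 0.46, SE 0.108, edgeR adjusted p = 0.0341), SQLE (0.35, SE 0.0881, edgeR adjusted p = 0.0439) and STARD4 (0.43, SE 0.109, edgeR adjusted p = 0.0478). The NPC1 and SQLE calls were lost on leaving out any 1 of the 6 libraries (edgeR adjusted p up to 0.160 and 0.171) and the STARD4 call on leaving out any but shNR4A2 replicate 2 (up to 0.190). NPC1 in control cells gave 0.47 (SE 0.126, edgeR adjusted p = 0.0476), lost on leaving out any library but shNR4A2 replicate 2 (up to 0.180). The members' median was 0.19, beside −0.00 over all genes tested. Under the replicate block 18 members were called, 14 higher and 4 lower, beside 28.1% of all genes. Those added by the block included ABCA1 (log2 fold change 0.34, SE 0.294, edgeR adjusted p = 0.552, and 0.000275 with the block), whose 3 libraries ran from 5.23 to 10.5 RPKM in shNR4A2 and from 4.06 to 8.66 RPKM in shNT. SREBF1 gave −0.20 (SE 0.125, edgeR adjusted p = 0.393, and 0.0228 with the block).

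In shNR4A3 cells the calls against shNT were fewer, and whether fewer members differed was not tested. In control cells INSIG1 and MSMO1 were higher and none was lower (6.67% of the 30), where 7.23% of all 15322 genes were called (3.91% higher, 3.32% lower). The replicate block added HMGCS1, higher (log2 fold change 0.27, SE 0.109, edgeR adjusted p = 0.167, and 0.0389 with the block, beside 14.8% of all genes called). With LPS INSIG1, MSMO1 and HMGCS1 were higher and none was lower (10.0%), where 6.45% of all 15578 genes were (3.99% higher, 2.46% lower). HMGCS1, lower in shNR4A2 cells, was here higher by a log2 fold change of 0.48 (SE 0.106, edgeR adjusted p = 0.0278). That call was lost without replicate 1 of shNR4A3 or replicates 1 or 3 of shNT (edgeR adjusted p up to 0.0975). The members' median was 0.07 in both states, beside −0.00 without and −0.01 with LPS over all genes. With the replicate block 10 members were called with LPS (7 higher, 3 lower), beside 21.8% of all genes, and among these SQLE was lower (−0.35, SE 0.0923, edgeR adjusted p = 0.0548, and 0.00126 with the block). DESeq2 also called SQLE (adjusted p = 0.0178).

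The remaining regulators and pumps did not pass the limit in either knockdown in the main fits. SREBF2 gave log2 fold changes of −0.07 and −0.01 in shNR4A2 cells without and with LPS (SE 0.0992 and 0.0890) and −0.17 and −0.06 in shNR4A3 cells (SE 0.0947 and 0.0694). SREBF1 gave −0.06 in shNR4A2 control cells (SE 0.159) and 0.08 and 0.09 in shNR4A3 cells (SE 0.124 and 0.0901). ABCA1 gave 0.05 in shNR4A2 control cells (SE 0.225) and −0.14 and 0.25 in shNR4A3 cells (SE 0.171 and 0.243), the last with an edgeR adjusted p of 0.0417 under the block. ABCG1 gave 0.07 and 0.55 in shNR4A2 cells (SE 0.337 and 0.500) and −0.39 and −0.20 in shNR4A3 cells (SE 0.251 and 0.331). ABCA1 varied between replicates of 1 group as much as between groups, from 5.22 to 11.1 RPKM in shNR4A2 control libraries alone.

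**Figure D4:**
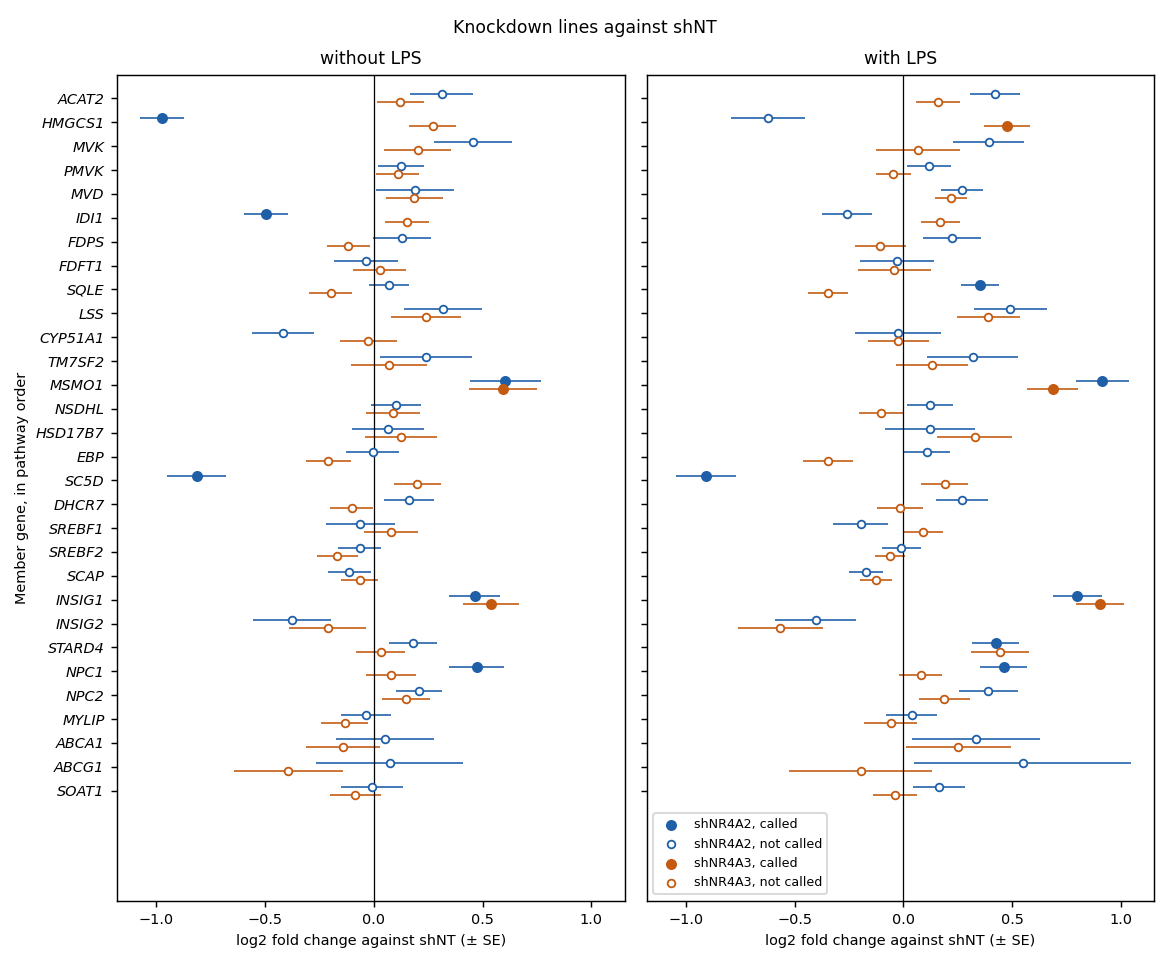
The log2 fold change against shNT with its SE (horizontal axis) of the 30 members tested (vertical axis, in pathway order) in shNR4A2 cells (blue) and shNR4A3 cells (orange), without LPS (left) and with LPS (right), filled where the edgeR adjusted p was under 0.05. HMGCS1, IDI1 and SC5D lie left of 0 for shNR4A2 and right of 0 for shNR4A3, and MSMO1 and INSIG1 lie right of 0 for both.

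The 2 knockdown lines were then compared directly, which tests the differences between them without shNT. HMGCS1, IDI1 and SC5D were lower in shNR4A2 than in shNR4A3 control cells and no member was higher (10.0% of the 30), where 3.08% of all 15584 genes were called (1.94% higher, 1.14% lower). HMGCS1 differed by a log2 fold change of −1.24 (SE 0.115, edgeR adjusted p = 8.07e-05), at 0.422 of the shNR4A3 level. SC5D stood at 9.80, 7.91 and 9.20 RPKM in shNR4A3 control libraries and differed by −1.01 (SE 0.140, edgeR adjusted p = 0.00144). IDI1 differed by −0.65 (SE 0.112, edgeR adjusted p = 0.0063). All 3 calls held on leaving out each library in turn, and the replicate block called 5 members (2 higher, 3 lower), beside 11.6% of all genes.

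With LPS, SC5D and HMGCS1 were again lower in shNR4A2 cells and SQLE was higher (10.0% of the 30), where 2.33% of all 15539 genes were called (1.27% higher, 1.06% lower). SC5D stood at 9.44, 8.07 and 7.67 RPKM in shNR4A3 libraries with LPS and differed by −1.09 (SE 0.141, edgeR adjusted p = 0.00733). HMGCS1 differed by −1.10 (SE 0.183, edgeR adjusted p = 0.0224), a call lost without shNR4A2 replicate 1 or any shNR4A3 replicate (edgeR adjusted p up to 0.0891). SQLE differed by 0.70 (SE 0.0988, edgeR adjusted p = 0.0108), a call lost without shNR4A3 replicates 1 or 3 (up to 0.0668). Under the replicate block 12 members were called (8 higher, 4 lower), beside 23.6% of all genes, and SREBF1 was among the lower ones (log2 fold change −0.29, SE 0.125, edgeR adjusted p = 0.279, and 0.00513 with the block). The members' median was 0.0684 without and 0.134 with LPS, beside 0.00 and 0.01 over all genes. INSIG1 was called in neither comparison of the knockdown lines (−0.08 and −0.10, 95% intervals −0.39 to 0.24 and −0.40 to 0.19), nor were SREBF2 (0.10 and 0.05), ABCA1 (0.19 and 0.09), ABCG1 (0.47 and 0.75) and, without LPS, SREBF1 (−0.14).

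Over the 9 comparisons of groups in the main fits, 12 of the 31 members were called at least once, 18 were tested and never called, and CH25H was not tested, where 41.5% of the 16682 genes tested were called at least once, a share close to that of the members. The 18 included 4 of 7 mevalonate genes (MVK, PMVK, MVD and FDPS), 8 of the 11 from squalene to cholesterol, SREBF1 and SCAP, NPC2, both efflux pumps and SOAT1, which esterifies cholesterol for storage. With the replicate block 24 members were called at least once, 12 of them among these 18, where 65.8% of all genes were. Summed over its 11 genes, the squalene to cholesterol group stood at 154 ± 13.2 RPKM in shNT, 157 ± 18.2 RPKM in shNR4A2 and 152 ± 10.6 RPKM in shNR4A3 control cells (SD, n = 3), differences smaller than the spread between replicates. With LPS it stood at 161 ± 11.2, 181 ± 17.5 and 152 ± 17.1 RPKM (SD, n = 3), and the shNR4A2 library was above the shNR4A3 and the shNT library in each of the 3 same-numbered pairs. The shNR4A2 libraries stood at 170.5, 201 and 171 RPKM, just above the highest of shNT at 169.7 RPKM and overlapping those of shNR4A3, which reached 172 RPKM. CYP51A1 shares 78.8% of its exon bases with LRRD1 on the same strand, and HSD17B7 and FDPS have near-identical copies elsewhere in the genome, so their levels are uncertain.

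A list of 31 further genes of sterol and lipid handling was examined beside the members, of which 30 were tested. With LPS, 2 rose and 6 fell in shNT cells (26.7%), 2 rose and 4 fell in shNR4A2 cells (20.0%) and 2 rose and 6 fell in shNR4A3 cells (26.7%), again near the share of all genes. Without control or LPS replicate 1 of shNR4A2, 2 were called there (6.67%), beside 14.7% and 12.9% of all genes. With the replicate block 10, 9 and 14 were called in the 3 lines (33.3%, 30% and 46.7%), beside 32%, 30.1% and 39.4% of all genes. GRAMD1A, which carries cholesterol from the plasma membrane to the endoplasmic reticulum, rose most: from 4.52, 5.71 and 4.38 RPKM in shNT control libraries to 23.9, 17.1 and 26.7 RPKM with LPS. Its log2 fold change was 2.22 in shNT, 2.66 in shNR4A2 and 2.84 in shNR4A3 cells (SE 0.153, 0.248 and 0.218, edgeR adjusted p = 1.02e-07, 7.86e-06 and 3.35e-06). Its relative GRAMD1B fell in all 3 lines (log2 fold change −0.50, −0.53 and −0.55). ERLIN1, a membrane protein of the endoplasmic reticulum that restrains SREBP activation, fell by 0.99, 1.00 and 0.87 on the log2 scale (edgeR adjusted p = 6.45e-06, 0.000698 and 0.000261). NR1H2, which encodes LXRβ, rose by 0.51, 0.41 and 0.43 (edgeR adjusted p = 0.004, 0.0284 and 0.00605), while NR1H3, which encodes LXRα, fell in shNT cells (−0.39, SE 0.126, edgeR adjusted p = 0.0358). VLDLR, a lipoprotein receptor that MYLIP targets, fell by 0.52, 0.49 and 0.51, and TMEM97, an SREBP target that binds NPC1, by 0.45, 0.42 and 0.51. The NR1H3 call was lost on leaving out any library but control replicate 3 (edgeR adjusted p up to 0.160). In shNR4A2 cells the calls of NR1H2, GRAMD1B, VLDLR and TMEM97 were each lost on leaving out some library (up to 0.129, 0.0803, 0.149 and 0.223), as was that of TMEM97 in shNR4A3 cells (up to 0.0575).

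Between lines, GRAMD1B was lower than in shNT in shNR4A2 cells without and with LPS (log2 fold change −0.63 and −0.66, SE 0.107 and 0.130, edgeR adjusted p = 0.00495 and 0.0185) and in shNR4A3 control cells (−0.37, SE 0.0997, edgeR adjusted p = 0.0419). Its shNR4A2 call without LPS held on leaving out each library, that with LPS was lost without shNR4A2 replicate 1 or shNT replicates 1 or 2 (edgeR adjusted p up to 0.0853), and the shNR4A3 call was lost without any library but shNR4A3 replicate 2 (up to 0.177). LRP1, a large receptor for lipoproteins and other ligands, was higher in shNR4A2 cells by 0.82 without and 1.04 with LPS (SE 0.184 and 0.204, edgeR adjusted p = 0.0211 and 0.0184), from a mean of 0.541 to 0.959 RPKM in control cells. Its control call was lost without replicates 1 or 2 of either line (edgeR adjusted p up to 0.0786) and its LPS call without shNT replicate 1 (0.0582). The scavenger receptor MSR1, with 33 reads in all 3 shNT control libraries together, was higher in shNR4A2 control cells (1.40, SE 0.330, edgeR adjusted p = 0.0271) and in shNR4A3 cells with LPS (1.35, SE 0.322, edgeR adjusted p = 0.037). DESeq2 called neither (adjusted p = 0.0506 and 0.0608). The first was lost without shNR4A2 replicate 1 or any shNT replicate (edgeR adjusted p up to 0.125) and the second without any library but shNR4A3 replicate 2 (up to 0.150). ACSS2, the acetyl-CoA synthetase, was higher in shNR4A2 cells with LPS (0.47, SE 0.118, edgeR adjusted p = 0.0464) and LIPA, the lysosomal lipase, in shNR4A3 control cells (0.30, SE 0.0827, edgeR adjusted p = 0.0439). The ACSS2 call was lost on leaving out any library but shNR4A2 replicate 1 (edgeR adjusted p up to 0.152), and the LIPA call on leaving out any of the 6 (up to 0.157) and without a filter (0.1003). CYP27A1, the sterol 27-hydroxylase, was higher in shNR4A2 than in shNR4A3 cells by 1.17 without and 1.09 with LPS (SE 0.210 and 0.215, edgeR adjusted p = 0.00805 and 0.0398). The first of these calls held on leaving out each library and the second was lost without any of the 6 (edgeR adjusted p up to 0.163). It stood at 1.64, 1.54 and 1.60 RPKM in shNR4A2 control libraries and 0.835, 0.691 and 0.599 RPKM in those of shNR4A3, with the shNT libraries between them at 1.04 to 1.14 RPKM. Against shNT, the replicate block called 11 of the 30 genes in shNR4A2 control cells and 10 with LPS, beside 23.6% and 28.1% of all genes. In shNR4A3 cells it called 4 and 11, beside 14.8% and 21.8%. Between the knockdown lines it called 3 and 10, beside 11.6% and 23.6%. Without the block these counts were 3, 3, 2, 1, 1 and 1 of the 30, beside 6.45%, 6.96%, 7.23%, 6.45%, 3.08% and 2.33% of all genes.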

How the data were processed

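The authors deposited 1 table of raw counts per library, whole numbers of reads on Ensembl genes, with exon lengths. The submitters' processing notes name Trimmomatic 0.36, STAR 2.5.2b, featureCounts in Subread 1.5.2 and GRCh38, and whether strand was used in counting is not given in the sources used here. Symbols came from GENCODE 29 (56898 genes, 54707 at the same position and strand). Counts were tested with edgeR 4.0.16 in R 4.3.3 (filterByExpr at defaults, TMM, quasi-likelihood F test, Benjamini-Hochberg over all genes tested, limit 0.05; intervals from the t quantile on the degrees of freedom of that test), each pair of groups fitted on its 6 libraries and the interactions on 12. The procedure was tested on simulated data. Alternatives were DESeq2 1.42.0, its size factors (RLE), no filter, all 18 libraries in 1 fit, the replicate number as a block, each library left out in turn and, added after the data were seen, ratios of TPM. Same-numbered libraries of the 2 groups deviated together (correlation of residuals above 0.1 for all 3 numbers, 0.159 to 0.533) in every pair of groups but LPS in shNT, where the lowest was 0.0592. Libraries were grouped by their labels. The members and lists were chosen with earlier results of these data known. Genes given with values were the members called in a comparison (at most 6 per direction), INSIG1, SREBF1, SREBF2, ABCA1 and ABCG1 throughout, and called genes of the other list (at most 4 per direction). Every library is given for members called in at least 3 comparisons.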

Additional observations from a re-analysis of the deposited data

Results flagged for a closer look

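Some members had an effect against shNT that differed between the knockdown lines, as tested by comparing shNR4A2 with shNR4A3 directly, where shNT cancels. Without LPS these were HMGCS1 (log2 difference −1.24), SC5D (−1.01) and IDI1 (−0.65). With LPS they were HMGCS1 (−1.10), SC5D (−1.09) and SQLE (0.70). In all 6 the libraries of the 2 lines did not overlap. They were picked by their calls in these same libraries, so this adds no support. Of the 25 listed cell type markers, all 18 libraries in 1 fit called 1 lower in shNR4A2 than in shNR4A3 cells in each state. It also called 1 higher with LPS, and edgeR without a filter gave the same counts. The 18-library fit called 4.16% of all genes without and 6.09% with LPS, and edgeR without a filter 2.19% and 2.8%. Without shNR4A3 replicate 2, 1 marker was called lower in each state and none higher. The monocytic markers LYZ, CSF1R, SPI1 and ITGAM were not called between the knockdown lines in either state in the main fits. With the block all 4 were lower in shNR4A2 than in shNR4A3 cells with LPS (log2 difference −0.52, −0.24, −0.19 and −0.36, edgeR adjusted p = 7.27e-05, 0.00962, 0.0135 and 0.000928), and LYZ and CSF1R without LPS (−0.57 and −0.25, edgeR adjusted p = 0.000153 and 0.0284), and DESeq2 called LYZ in both states (adjusted p = 0.0168 and 0.0172). Other markers went the other way. With LPS the block called 3 markers higher and 4 lower of 14 tested, beside 23.6% of all genes. Without LPS it called 1 higher and 2 lower of 12 tested, beside 11.6%. DESeq2 called 1 marker higher and 1 lower without LPS, beside 4.21% of all genes, and 1 lower with LPS, beside 4.44%. The part of the markers in the differences of the members was not tested.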

How the results depend on the processing

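Among the 46 calls of a member in a comparison, none changed sign in 506 refits, and 19 were lost on leaving out some library, where fewer libraries alone raise the p-values; 45 of 566 refits of named values that were not called changed sign. Leaving out each library in turn gave 5 to 9 members called for LPS in shNT (5 without control replicate 1 or LPS replicate 2), 6 to 8 in shNR4A2 and 5 to 8 in shNR4A3 (5 without control replicate 1). It gave 2 to 4 for shNR4A2 without LPS (2 without shNT replicate 2) and 3 to 6 with LPS (3 without shNR4A2 replicate 3 or any shNT replicate), 0 to 1 for shNR4A3 without (0 without shNR4A3 replicates 2 or 3 or shNT replicate 1) and 2 to 5 with LPS (5 without shNR4A3 replicate 2), 3 in every case for the knockdown lines compared without LPS, 1 to 3 with LPS (1 without shNR4A3 replicates 1 or 3), and 0 for the interactions. The paired fit with the replicate block called 12 members for LPS in shNR4A2, 12 for shNR4A2 without and 18 with LPS, 10 for shNR4A3 with LPS, and 5 and 12 for the knockdown lines compared without and with LPS, in place of 6, 6, 6, 3, 3 and 3. It called 10 for LPS in shNT (adding ABCG1, lower, edgeR adjusted p = 0.0272), 9 for LPS in shNR4A3 and 3 for shNR4A3 without LPS, and ended no call. The share of all genes moved with these counts. The block called 32% of all genes for LPS in shNT and 39.4% in shNR4A3, where the members' share (30%) was below it. All 18 libraries in 1 fit called 27.2% for LPS in shNR4A2 and 6.09% between the knockdown lines with LPS. Leaving out a library gave 18.7% to 21.3% for LPS in shNT, 12.9% to 20.7% in shNR4A2 and 19.9% to 30.7% in shNR4A3. Against shNT it gave 3.19% to 6.92% for shNR4A2 without LPS and 2.13% to 9.23% with LPS. For shNR4A3 these were 4.12% to 6.16% and 2.38% to 10.6%. Between the knockdown lines they were 1.56% to 2.97% without and 0.59% to 1.37% with LPS. All 18 libraries in 1 fit called 11 for LPS in shNR4A2 and 6 for the knockdown lines with LPS, and ended 5 calls: SREBF2 and ACAT2 for LPS in shNT (edgeR adjusted p = 0.0962 and 0.106), ACAT2 for LPS in shNR4A3 (0.0591), INSIG1 for shNR4A2 without LPS (0.0523) and HMGCS1 for shNR4A3 with LPS (0.0564). Without a filter 10 were called for shNR4A2 and 7 for shNR4A3 with LPS, and 5 for the knockdown lines with LPS. The shares of all genes there were 4.57%, 4.57% and 2.8%. Without a filter SREBF2 for LPS in shNT was lost (edgeR adjusted p = 0.0784). DESeq2 called 5 for shNR4A3 with LPS and 5 for the knockdown lines with LPS, beside 8.44% and 4.44% of all genes. Neither DESeq2 nor RLE ended a call. The cause was not tested.

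TPM moved with LPS as a whole: the median ratio over all genes was −0.23 (shNT), −0.28 (shNR4A2) and −0.23 (shNR4A3) on the log2 scale, against −0.01 after TMM, so 9, 8 and 12 of the 30 members tested had another sign there, none of them a called one. ABCG1 had 19 to 111 reads per library, INSIG2 53 to 224 and MSR1 9 to 46, which limits their precision, and CH25H could not be measured.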
